A study of Arabidopsis thaliana with 128 samples.

Results

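The genes carried on the mitochondrial genome of Arabidopsis thaliana (thale cress) were followed in seedlings treated with the transcription inhibitor cordycepin. The members were the rows of the expression table whose locus identifier begins with ATMG and whose mean was at least 1 RPM (reads per 1000000 reads counted in genes) over the 16 libraries at 0 min. This kept 80 of 146 mitochondrial rows, in a table of 28775 rows. The members held between 99.82% and 99.96% of the mitochondrial reads of every library. Just inside the limit were ATMG00450 with 1.02 RPM and ATMG01410 with 1.06 RPM, and just outside were ATMG00300 with 0.900 RPM and ATMG01240 with 0.893 RPM. Of the 66 rows left out, 7 reached a mean of 1 RPM in some group and 3 had 0 reads in every library.

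The libraries came from 4 genotypes at 8 times, namely 0 min and then 7.5, 15 and 30 min, 60 and 120 min, and 240 and 480 min, with 4 numbered biological replicates each. WT was the accession Col-0 carrying an SOV transgene taken from the accession L.er, and sov was Col-0 without it. The third genotype, vcs, combined the vcs-7 allele with the same transgene, and vcs sov carried vcs-7 without the transgene. VCS (VARICOSE) is a scaffold protein of cytoplasmic mRNA decapping, and SOV is a cytoplasmic 3′ to 5′ exoribonuclease. Every replicate pooled 50 to 60 whole seedlings per genotype, 5 d old and grown in constant light at 22 °C. The seedlings were infiltrated under vacuum with 1 mM cordycepin, an adenosine analogue that stops RNA chains from growing. Whether the drug acted inside mitochondria was not tested. In whole seedlings, fewer cells of a type and less RNA per cell cannot be told apart. The p-values below measure the spread between these pools.

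Plant mitochondria keep a small set of genes for subunits of the respiratory chain and of ATP synthase, for cytochrome c maturation and for their own ribosomes. Nucleus-encoded, phage-type RNA polymerases transcribe these genes. The RNAs carry no cap, their ends are formed by processing, and addition of a poly(A) tail marks them for degradation by polynucleotide phosphorylase and an RNase II-type enzyme. Decapping and SOV act in the cytoplasm, so the mitochondrial genes are a compartment outside the direct reach of both.

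Names were taken from RefSeq notes, which describe nuclear genes by their best mitochondrial protein match. They gave a gene symbol for 17 members and another description for 18. The other 45 members had no note and are given by identifier alone. Many mitochondrial sequences also occur on chromosome 2, in a large insertion of mitochondrial DNA near the centromere. Some also resemble plastid genes. The nuclear copy of ATMG00280 matches plastid rbcL at 96.86% over 573 bases. That of ATMG00370 matches plastid ycf1 at 97.08% over 821 bases. The next sequences (RefSeq, build TAIR10.1) concern the most abundant member, ATMG00280, because reads of the 3 places shown are hard to separate. It is described, through its nuclear copy AT2G07732, as the catalytic domain of the Rubisco large chain. Shown are 150 bases of the mitochondrial match of that copy (chrM:165102-165251, plus strand). Beside them are the copy itself (chr2:3468470-3468619, minus strand) and the plastid rbcL gene (chrC:55617-55766, plus strand). The sources used here give no coordinates of ATMG00280, so whether the stretch lies within it is not known. Capitals mark bases that differ from the mitochondrial sequence.
mitochondrial genome: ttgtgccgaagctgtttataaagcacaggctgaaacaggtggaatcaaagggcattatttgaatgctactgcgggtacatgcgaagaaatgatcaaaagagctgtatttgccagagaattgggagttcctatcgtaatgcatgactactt
AT2G07732: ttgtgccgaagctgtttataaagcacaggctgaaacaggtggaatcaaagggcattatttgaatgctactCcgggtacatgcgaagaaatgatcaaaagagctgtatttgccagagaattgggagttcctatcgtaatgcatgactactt
plastid rbcL: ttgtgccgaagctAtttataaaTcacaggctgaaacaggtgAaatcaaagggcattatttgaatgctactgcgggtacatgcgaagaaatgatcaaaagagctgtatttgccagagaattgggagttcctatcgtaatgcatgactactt

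The nuclear copy differed at 1 and rbcL at 3 of the 150 bases. A read that covers none of these positions has the same letters in all 3 places. The second set shows the first 120 bases of atp9 (ATMG01080, chrM:271066-271185, minus strand), which encodes the membrane ring subunit of ATP synthase. Beside them is the matching stretch inside its copy AT2G07671 (chr2:3251961-3252080, minus strand). These are identical, so no capitals appear.
atp9: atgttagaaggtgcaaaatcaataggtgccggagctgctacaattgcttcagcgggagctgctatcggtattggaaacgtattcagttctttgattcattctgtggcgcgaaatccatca
AT2G07671: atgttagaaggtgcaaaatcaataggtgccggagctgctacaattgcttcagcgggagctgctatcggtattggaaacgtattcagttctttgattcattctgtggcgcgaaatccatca

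Library depth was 11480085 to 37349698 reads in genes (median 21731264), so that 3 reads correspond to 0.0803 to 0.261 RPM. The gene VCS (AT3G13300) stood at 59.5 to 79.8 RPM in WT and sov libraries at 0 min, at 4.19 to 4.98 RPM in vcs and at 8.62 to 9.80 RPM in vcs sov. SOV (AT1G77680) averaged 98.5 RPM in WT, 21.0 in sov, 182 in vcs sov and 517 in vcs at 0 min. Plastid genes took 21.5% to 60.7% of the reads of a library and mitochondrial genes 1.31% to 3.40%. At 0 min the mean plastid share was 49.5% in WT, 47.4% in sov, 24.8% in vcs sov and 35.3% in vcs, and at 480 min it was 58.5%, 57.8%, 29.8% and 44.8% in that order.

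The mitochondrial share of reads rose after cordycepin in all 4 genotypes. In WT it was 1.42% ± 0.0740 (SD, n = 4) at 0 min and 2.36% ± 0.239 at 480 min. The same means were 1.37% ± 0.0513 and 2.16% ± 0.180 in sov, 1.71% ± 0.0668 and 3.00% ± 0.299 in vcs sov, and 1.48% ± 0.124 and 2.34% ± 0.232 in vcs. In each genotype the 4 libraries at 480 min lay above the 4 at 0 min. The increase was 0.936 percentage points in WT, 0.793 in sov, 1.29 in vcs sov and 0.867 in vcs (two-sided exact permutation test, p = 0.0286 and adjusted p = 0.0286 for each, the smallest p that 4 against 4 libraries allow). The exact sign-flip permutation over the 4 same-numbered pairs gave p = 0.125 in every genotype, the smallest it allows. By the rule given below, same-numbered libraries paired in vcs and vcs sov. With plastid reads left out of the total, the increase was 2.88 percentage points in WT, 2.52 in sov, 2.01 in vcs sov and 1.96 in vcs. In the same order the mean nuclear share of all reads was 49.1%, 51.25%, 73.5% and 63.2% at 0 min. At 480 min it was 39.1%, 40.01%, 67.2% and 52.9%. Shares and RPM are relative to the reads of a library, so a rise in them does not show a gain of RNA.

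Before the drug, the share was highest in vcs sov. It exceeded sov by 0.341 percentage points and vcs by 0.236, with no overlap between the libraries (exact permutation p = 0.0286, adjusted p = 0.0571 over 4 comparisons, for both). The difference from WT was -0.0516 in sov (exact permutation, adjusted p = 0.381) and 0.0538 in vcs (exact permutation, adjusted p = 0.514). As a percent of nuclear and mitochondrial reads alone the sign of 3 of these differences turned: vcs against WT was -0.534, vcs sov against sov -0.327 and vcs sov against vcs -0.00351 percentage points. The plastid share moved with the genotype, as given above, and its part in these differences was not tested.

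**Figure D1:**
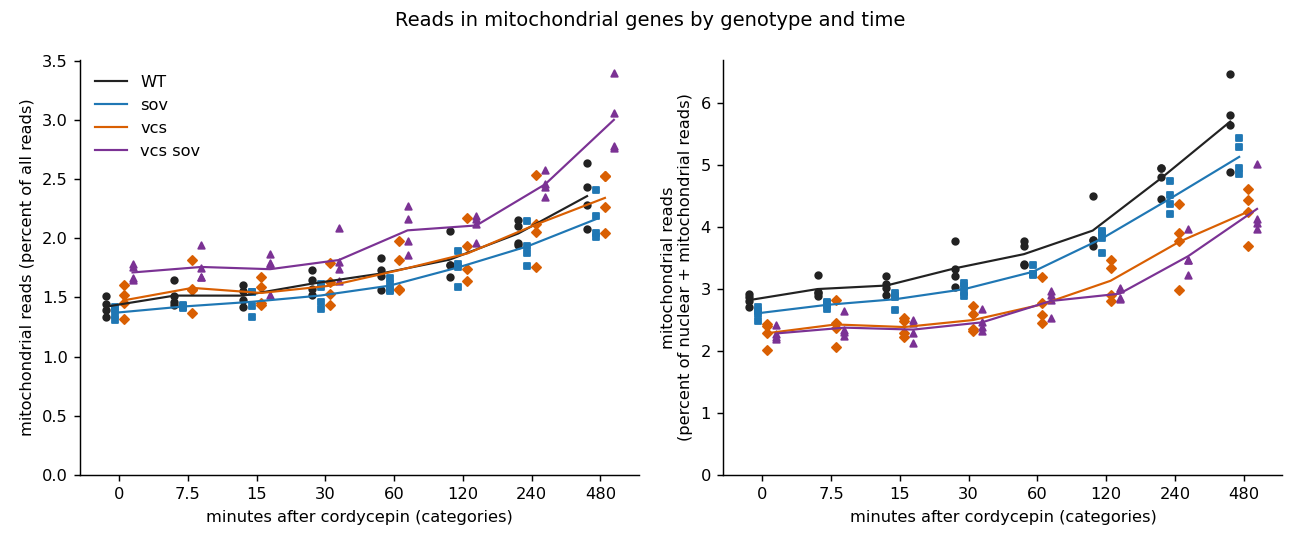
Reads in mitochondrial genes as a percent of all reads (left) and of nuclear plus mitochondrial reads (right), by time after cordycepin (categories, min); points are libraries and lines join the means of 4. The share of all reads rises from 1.42% to 2.36% in WT and from 1.71% to 3.00% in vcs sov, while on the right vcs sov lies below WT at 0 min.

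In WT at 0 min the most abundant member by far was ATMG00280, at 3638, 3514, 3827 and 3811 RPM in the 4 libraries. Next came ATMG01360 with 1216 ± 60.8 RPM (SD, n = 4) and atp1 (ATMG01190, a catalytic-head subunit of ATP synthase) with 1113 ± 77.6 RPM. The libraries of these 2 genes overlapped between 1144 and 1191 RPM. ATMG00020 averaged 778 RPM with an SD of 344, the widest spread among the 10 most abundant members. Below these stood cox3 (ATMG00730, a core subunit of cytochrome c oxidase) with 552 ± 63.5 RPM, ATMG00160 with 506 ± 63.5, atp9 with 493 ± 122, ATMG00580 with 440.3 ± 15.3, ATMG00060 with 426 ± 28.5 and cob (ATMG00220, apocytochrome b of complex III) with 357 ± 46.1. From cox3 down to ATMG00060, neighbours in this order differed by less than the larger of their SDs.

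RPM does not correct for gene length, so levels were compared between genes in RPKM (RPM per kilobase of gene) of the authors' deposited table. In WT at 0 min that table gives 9385 RPKM for ATMG00280, 830.5 for atp9, 610 for atp1, 354 for atp8 (ATMG00480, a small membrane subunit of ATP synthase), 322 for cox3 and 235 for cob. The complex I genes nad2 (ATMG01320), nad1 (ATMG01275) and nad3 (ATMG00990) stand at 175, 60.2 and 60.0 RPKM there. Ribosomal protein genes range from 98.9 RPKM for rps12 (ATMG00980) to 13.4 for rps7 (ATMG01270). The cytochrome c maturation genes stand at 46.1 RPKM for ccmFC (ATMG00180), 10.5 for ccmFN2 (ATMG00960) and 9.002 for ccmC (ATMG00900). The authors' table lists an RPKM for 73 members and none for ATMG00020, ATMG00330, ATMG00360, ATMG00380, ATMG00780, ATMG01340 and ATMG01390.

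At 480 min after cordycepin, respiratory chain and ATP synthase genes with a symbol stood higher in RPM than at 0 min in every genotype. A smaller group of mostly low-level members was lower. In WT cob read 408, 312, 325 and 383 RPM at 0 min and 687, 618, 592 and 676 RPM at 480 min. The 4 later libraries lay above the 4 earlier ones without overlap, and cob rose by 0.85 on the log2 scale (SE 0.0999, limma adjusted p = 3.33e-13). In vcs sov cob went from 592, 495, 567 and 583 RPM to 1080, 1065, 986 and 876 RPM. Its log2 change there was 0.84 (SE 0.0999, limma adjusted p = 2.21e-12).

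Counted over the members, 40 of 80 were higher and 22 lower at 480 min in WT (limma on log2(RPM + 0.5), adjusted p under 0.05), against 6.31% higher and 75.5% lower of all 20070 genes tested. In sov the counts were 39 and 19 (background 6% and 77.1%), in vcs 43 and 19 (6.94% and 74.5%) and in vcs sov 38 and 16 (12.4% and 54.2%). The median log2 change of the members was 0.41 in WT, 0.43 in sov, 0.44 in vcs sov and 0.44 in vcs. The median of all genes was -0.94, -1.01, -0.41 and -0.88 in the same order. The split depended on scaling: edgeR with TMM scaling on the recovered reads gave 58 higher and 7 lower in WT, 61 and 8 in sov, 53 and 9 in vcs sov, and 58 and 8 in vcs. RPM of nuclear genes alone gave 50 and 14, 49 and 16, 45 and 13, and 48 and 17 in the same order. A set of 34 members was called higher in all 4 genotypes and a set of 14 lower in all 4. None was higher in one genotype and lower in another, and 11 were called in no genotype. These overlaps were not counted over all genes, of which 6% to 12.4% were higher and 54.2% to 77.1% lower in each genotype. The sets thus cannot be read as particular to the members.

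Roles were compared only among members with a gene symbol, so the classes are not complete sets. The 4 such genes of ATP synthase (atp1, atp6, atp8 and atp9) rose in all 4 genotypes, with median log2 changes between 0.67 and 0.84. ATMG01090, described as ATP synthase 9 but without a symbol, fell in all 4. In WT atp9 read 511, 380, 425 and 657 RPM at 0 min and 1047, 762, 671 and 1031 RPM at 480 min, the lowest later library standing just above the highest earlier one. For atp6 (ATMG00410, the proton-channel subunit), the WT libraries went from 327, 309.5, 311 and 357 RPM to 587, 606, 530 and 596 RPM, with no overlap. The 3 complex I genes with a symbol rose in all 4 genotypes as well, by medians of 0.67 to 0.75. So did cob and cox3, which represent complexes III and IV. Of the 5 ribosomal protein genes, 4 rose in WT, sov and vcs and 3 in vcs sov. The exception throughout was rps7, with 6.12, 6.01, 8.80 and 7.17 RPM at 0 min and 8.16, 6.99, 9.80 and 7.17 RPM at 480 min in WT (log2 change 0.18, SE 0.261, limma adjusted p = 0.516). Of the 3 cytochrome c maturation genes, all rose in WT and vcs and 2 in sov and in vcs sov, where ccmFN2 missed the threshold (limma adjusted p = 0.0647 and 0.0802). No member with a gene symbol fell in RPM in any genotype.

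The 18 described members without a symbol divided differently: 4 rose and 9 fell in WT, 4 and 6 in sov, 4 and 7 in vcs sov, and 5 and 7 in vcs. Among the 45 members without annotation, 20 rose and 13 fell in WT, with 20 and 13 in sov, 20 and 9 in vcs sov, and 22 and 12 in vcs. ATMG00580 was among the largest risers, from 450, 441, 419 and 452 RPM to 827, 881, 762 and 803 RPM in WT (log2 change 0.89, SE 0.0852, limma adjusted p = 2.62e-17).

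**Figure D2:**
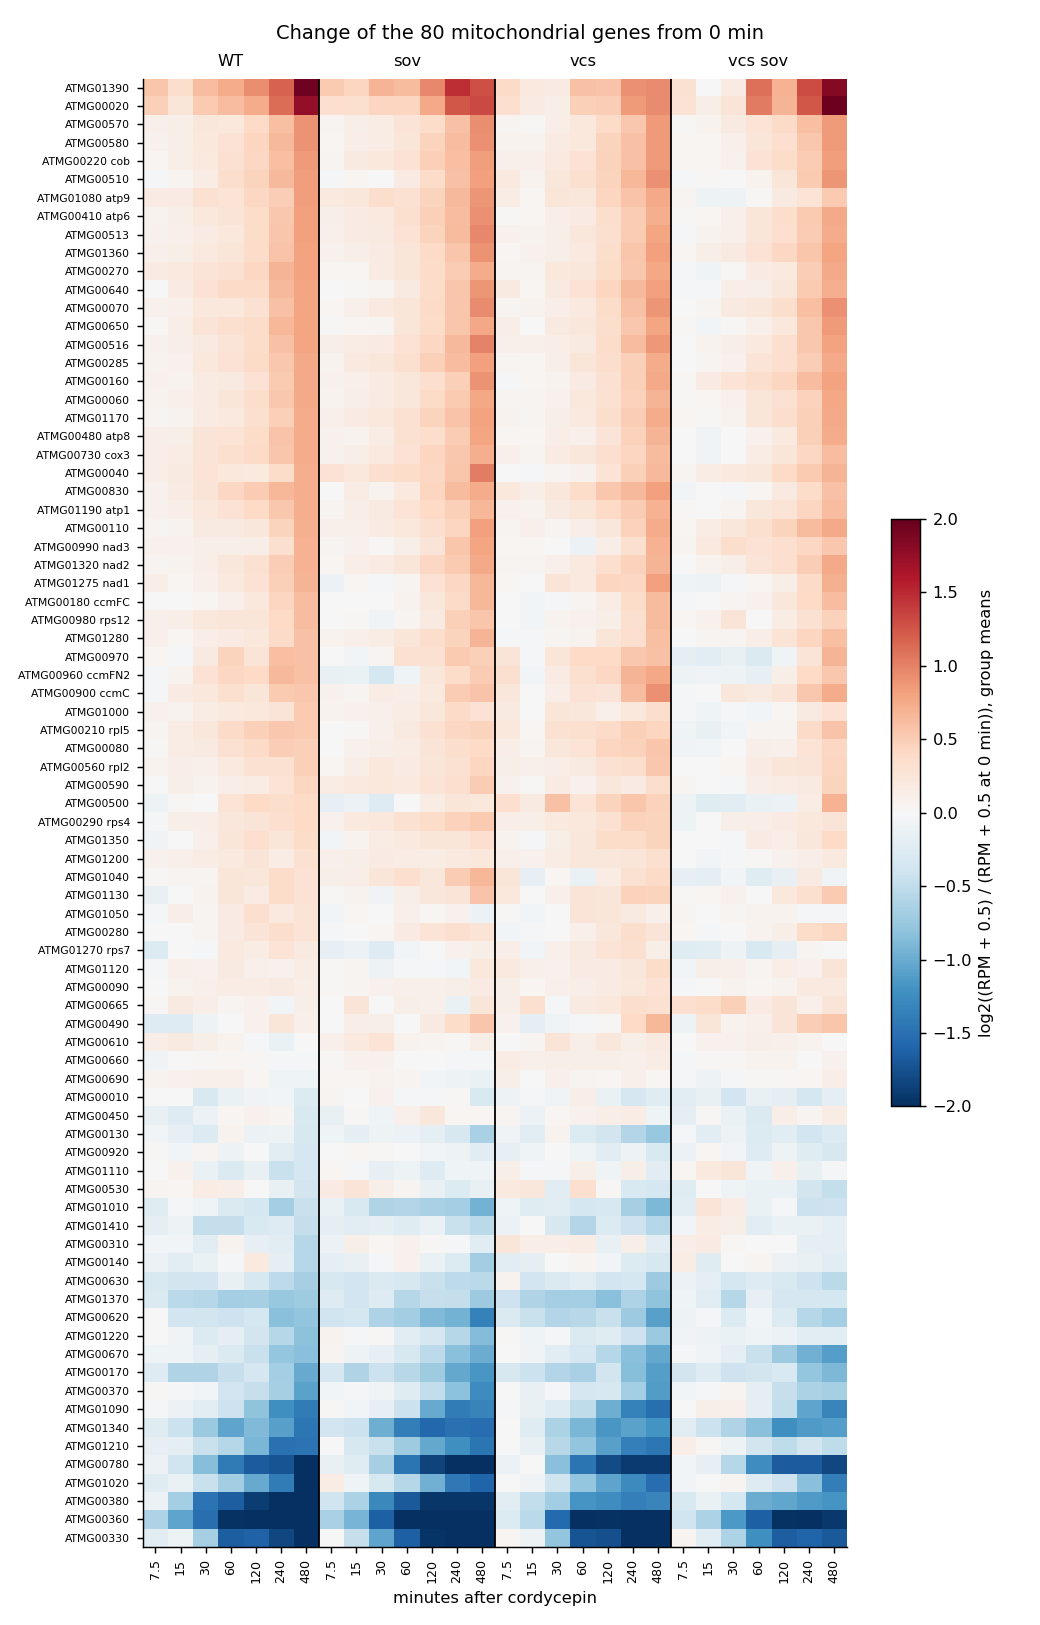
Log2 change of group mean RPM (plus 0.5) from 0 min for each of the 80 members (rows, sorted by the change in WT at 480 min) at the 7 later times in the 4 genotypes (columns, min; colour limits at -2 and 2). ATMG01390 and ATMG00020 stand at the top. Rows with a symbol for the respiratory chain and ATP synthase, such as cob (0.85 at 480 min in WT), follow in red. The 14 members called lower in all 4 genotypes lie in blue near the bottom.

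Members were also split by level, as the mean over all libraries, which includes the later times and so the change itself. Of the 29 members with a mean of 100 RPM or more over all libraries, 26 rose and 0 fell in WT, and 24, 25 and 25 rose and 0 fell in sov, vcs and vcs sov. Of the 23 members between 10 and 100 RPM, 13 rose and 4 fell in WT. Of the 28 members under 10 RPM, 1 rose and 18 fell in WT, and 2 or 3 rose and 13 to 15 fell in the other genotypes.

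The change built up over the course. The median over the 80 members of the log2 ratio to 0 min in WT was 0.02 at 7.5 min, 0.07 at 15 min, 0.11 at 30 min, 0.19 at 60 min, 0.22 at 120 min, 0.32 at 240 min and 0.40 at 480 min. At 120 min, 25 members were higher and 10 lower in WT (limma, adjusted p under 0.05; background 6.37% and 55.2%). The counts were 27 and 14 in sov (background 5.21% and 61.7%), 27 and 10 in vcs (4.91% and 53.4%), and 17 and 8 in vcs sov (7.65% and 36.5%). TMM scaling raised these to 52 and 8, 55 and 8, 51 and 9, and 33 and 7, and RPM of nuclear genes gave 37 and 10, 39 and 12, 36 and 10, and 21 and 8. With same-numbered libraries as a block, which paired within vcs and within vcs sov, 16 were lower in vcs and 28 higher in vcs sov. In WT, where they did not pair by the rule used, the block gave 38 higher. Mean cob in WT stood at 123% of its 0 min level at 60 min, 134% at 120 min, 152% at 240 min and 180.1% at 480 min.

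The 5 fallers with the fewest reads described here, chosen after their values were seen, were ATMG00360, ATMG00330, ATMG00380, ATMG00780 and ATMG01340, all among the 7 without an RPKM in the authors' table. ATMG00360 had 3.06, 2.02, 1.13 and 3.06 RPM in WT at 0 min and 0.155, 0.117, 0.210 and 0.216 RPM at 480 min. Its WT mean was 57.9% of the 0 min level after 7.5 min, 36.9% after 15 min, 21.1% after 30 min, 9.41% after 60 min and 4.37% after 120 min. The fitted log2 change at 480 min, which the added 0.5 RPM makes smaller than the true ratio at such levels, was -1.996 in WT, -2.50 in sov, -1.86 in vcs sov and -2.16 in vcs (limma, largest adjusted p = 6.16e-14).

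Behind these values stood few reads, and the intervals that follow cover counting error only. For ATMG00360, 229 reads in the 4 WT libraries at 0 min became 12 at 480 min, or 7.70% after scaling to depth (95% exact interval 3.92% to 13.7%), and in sov 278 became 3, or 1.495% (0.307% to 4.42%). ATMG00330 went from 180 to 3 reads in WT, or 2.45% (0.500% to 7.27%), ATMG00380 from 163 to 4, or 3.61% (0.971% to 9.41%), and ATMG00780 from 181 to 5, or 4.06% (1.30% to 9.65%). In the authors' deposited table of means scaled to 0 min the lowest member at 480 min lies between 0.00866 and 0.0203 in the 4 genotypes.

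Slower falls were seen in members with more reads. ATMG01090, described as ATP synthase 9, read 31.4, 35.0, 40.5 and 35.4 RPM in WT at 0 min and 11.7, 16.03, 13.2 and 12.2 RPM at 480 min, with no overlap. Its WT mean was 98.5% of the 0 min level at 7.5 min, 56.6% at 120 min and 37.2% at 480 min, and in vcs sov 70.4% at 120 min and 39.0% at 480 min. The gene with the symbol atp9 rose over the same time. ATMG01020, without annotation, went from 7.89, 10.7, 10.4 and 9.59 RPM to 1.48, 3.23, 0.980 and 2.37 RPM in WT, a log2 change of -2.09 (SE 0.188, limma adjusted p = 1.14e-18). ATMG00370, described as a Ycf1 protein, fell in WT from 20.3, 13.8, 18.9 and 20.6 RPM to 7.77, 7.51, 8.40 and 10.2 RPM. The similar plastid gene ycf1 (ATCG01130) fell from a mean of 1141 to 614 RPM in WT over that time. The part of ycf1 reads in the fall of ATMG00370 was not tested.

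ATMG00020 and ATMG01390 had the largest fitted rises and the widest spread. ATMG00020 read 1172, 705, 885 and 351 RPM in WT at 0 min and 2954, 2181, 4699 and 734 RPM at 480 min. The groups overlapped, since replicate 4 at 480 min lay below replicates 1 and 3 at 0 min. The log2 change was 1.61 in WT (SE 0.644, limma adjusted p = 0.0180) and 2.03 in vcs sov (limma adjusted p = 0.00405), and for ATMG01390 1.72 and 2.06 (limma adjusted p = 0.0278 and 0.0114). In WT both calls were lost when replicate 1, 2 or 3 was left out (limma adjusted p between 0.0573 and 0.1). For ATMG01390 in vcs sov the call was lost without replicate 2 or 4 (limma adjusted p = 0.0645 and 0.0801). The 2 genes moved as a pair: ATMG01390 stood at 0.223 to 0.485 times ATMG00020 over all libraries. The RNA had been depleted of ribosomal RNA with a plant kit. Neither gene has an annotation in the sources used here, and they were treated as candidates for ribosomal RNA rows when another mitochondrial total was tried. If they are, their RPM is what the depletion left, and its part in their spread and rise was not tested.

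**Figure D3:**
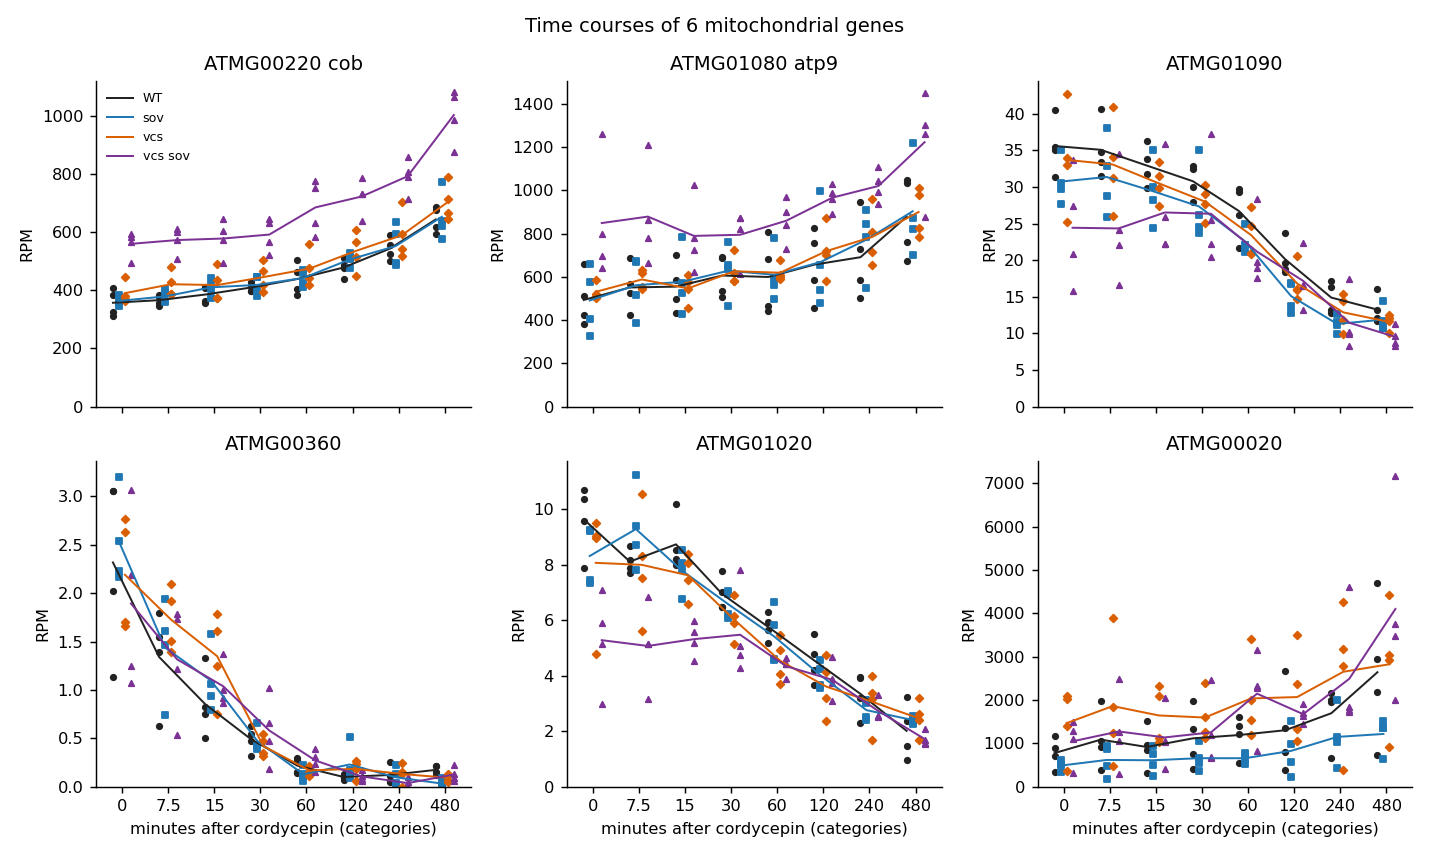
RPM of 6 members by time after cordycepin (categories, min), with a point for each library and lines through the means of 4. In WT, cob climbs to 180.1% of its 0 min level, ATMG01090 drops to 37.2% and ATMG00360 to 7.53%, while ATMG00020 spreads from 734 to 4699 RPM at 480 min.

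Members were also counted per mitochondrial read, that is, by their share of the mitochondrial total. They hold nearly all of that total. How higher and lower members balance is thus largely fixed in advance, and the split is no result. The total also moved with ATMG00020, which took 2.52% to 7.76% of it in WT at 0 min and 3.54% to 17.8% at 480 min. At 480 min 0 members were higher and 33 lower in WT (background 1.05% and 92%), 7 and 34 in sov (1.15% and 91.3%), 1 and 30 in vcs (0.688% and 91.6%), and 1 and 42 in vcs sov (1.05% and 91.8%), by the same limma fit. For the count of 0 in WT, 35 members had an unadjusted p under 0.05 in either direction. At 120 min the counts were 0 and 21 in WT (background 1.98% and 76%), 0 and 24 in sov (1.87% and 80.2%), 0 and 20 in vcs (1.62% and 77.7%), and 0 and 16 in vcs sov (1.65% and 63.8%), with 21, 26, 21 and 19 members at an unadjusted p under 0.05. With the replicate block, 8 members were higher at 480 min in vcs and 2 in vcs sov, and 30 lower at 120 min in vcs sov. Without it, a set of 29 members was lower in all 4 genotypes at 480 min and 29 were called in none. Of the 17 members with a symbol, 0 rose and 1 fell in WT, 1 and 1 changed in sov, 0 in vcs, and 0 rose and 5 fell in vcs sov. The share of cob in the mitochondrial reads thus passed the threshold in no genotype. ATMG00280 fell on this scale in all 4, from 24.1%, 26.3%, 26.4% and 27.4% of the mitochondrial reads at 0 min in WT to 16.9%, 17.2%, 19.2% and 22.5% at 480 min.

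In the authors' deposited table of means relative to 0 min, the median of the 80 members at 480 min is 0.876 in WT, 0.891 in sov, 0.905 in vcs sov and 0.905 in vcs. The median over all 18674 rows of that table is 0.285 in WT, 0.268 in sov, 0.496 in vcs sov and 0.328 in vcs. Between 32 and 35 members lie above 1 there at 480 min. No error accompanies these means, and their normalization is not given in the sources used here.

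Before cordycepin, no member passed the test between sov and WT: 0 members were higher and 0 lower (limma, adjusted p under 0.05; 0.0102% and 0.0307% of all 19556 genes tested), 1 member had an unadjusted p under 0.05, and edgeR with TMM also called 0. The median log2 difference of the members was 0.02. The estimates furthest from 0 were -0.71 for ATMG01390 (SE 0.713) and 0.52 for ATMG00500 (SE 0.257), both with a limma adjusted p above 0.9.

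In vcs against WT, 9 members were higher and 5 lower (background 66.8% and 4.78%), and the members' median difference was 0.03 where that of all genes was 0.49. The cytochrome c maturation genes ccmFN2, ccmC and ccmFC all passed, at 0.54, 0.41 and 0.34 on the log2 scale in RPM, but none of these 3 calls held under either other scaling. With TMM they were at 0.05 (edgeR adjusted p = 0.809), -0.12 and -0.18, and ccmFC then passed in the other direction (edgeR adjusted p = 0.0411). In RPM of nuclear genes they were at 0.20 (limma adjusted p = 0.257), 0.06 and -0.02. The ccmC call was also lost without WT replicate 1 or without vcs replicate 2 or 3 (limma adjusted p = 0.0785, 0.0554 and 0.0618). The complex I gene nad2, at 0.42, turned to -0.11 with TMM, and rps12, at 0.37, to -0.16. ATMG00110, without annotation, had 19.3, 21.5, 20.8 and 19.0 RPM in WT and 34.1, 33.7, 32.2 and 33.0 RPM in vcs, with no overlap (log2 difference 0.71, SE 0.105, limma adjusted p = 1.00e-05), though TMM scaling did not call it. Lower in vcs were ATMG00280, by -0.48 (SE 0.0966, limma adjusted p = 0.000232), ATMG00380, ATMG00370, ATMG01210 and rpl2. With TMM scaling the counts were 0 higher and 51 lower, and in RPM of nuclear genes 1 and 33, so the direction for the members as a group depends on the scale. The count of 5 lower fell to 2 without WT replicate 1 or vcs replicate 4, and to 3 without WT replicate 4 or vcs replicate 1.

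In vcs sov against sov, 40 members were higher and 11 lower (background 66.3% and 12.8%), with a median difference of 0.38 against 0.63 for all genes. TMM scaling gave 5 and 43 and RPM of nuclear genes 12 and 28. Of the 17 members with a symbol, 14 were higher and 0 lower in RPM. Since TMM scaling called only 5 members higher in all, most of these 14 were not called higher there. The gene furthest apart was ccmFN2, which encodes part of the haem-attachment machinery for c-type cytochromes. It read 11.2, 11.7, 11.7 and 10.5 RPM in sov and 31.7, 36.9, 30.4 and 23.5 RPM in vcs sov, a 2.61-fold difference with no overlap (log2 difference 1.39, SE 0.142, limma adjusted p = 4.05e-08). ATMG00970, described as an unknown protein, read 2.98, 2.25, 3.19 and 3.20 RPM in sov and 7.70, 7.24, 8.68 and 8.31 RPM in vcs sov (log2 difference 1.32, SE 0.159). ccmC, at 1.05, made all 3 cytochrome c maturation genes higher. The 3 complex I genes were higher by a median of 0.77, cox3 by 0.80, cob by 0.62, rpl5 (ATMG00210) by 0.83 and rps4 (ATMG00290) by 0.78. atp8, rpl2 and rps7 had differences of 0.20, 0.11 and 0.21 that did not pass.

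Lower in vcs sov than in sov were ATMG01210 and ATMG00280, followed by ATMG01220, ATMG00140, ATMG00130 and ATMG01020. ATMG00280 had 3402, 3759, 3770 and 3895 RPM in sov and 1663, 1762, 2009 and 2118 RPM in vcs sov, with no overlap (log2 difference -0.98, SE 0.0966, limma adjusted p = 2.47e-08). ATMG01210, of which RefSeq notes a nuclear pseudogene, had 7.22, 8.87, 7.78 and 7.23 RPM in sov and 4.81, 3.16, 3.53 and 2.92 RPM in vcs sov (log2 difference -1.03, SE 0.140, limma adjusted p = 1.76e-06).

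In vcs sov against vcs, where the SOV transgene is the labelled difference, 37 members were higher and 9 lower (background 40.8% and 18%), with a median difference of 0.31 against 0.18 for all genes. TMM scaling gave 19 and 12 and RPM of nuclear genes 18 and 11. Of the members with a symbol, 14 were higher and 0 lower. ccmFN2 again led, from 12.4, 15.1, 12.9 and 9.59 RPM in vcs to the values above in vcs sov (log2 difference 1.26, SE 0.142, limma adjusted p = 6.17e-07). It was followed by ATMG00970 at 1.18, ATMG00500 at 0.82, ATMG00830 at 0.76, cox3 at 0.74 and rps4 at 0.70. The count of 9 lower dropped to 5 without vcs replicate 2 or 4 and to 4 without vcs sov replicate 4.

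The vcs effect depended on the SOV state for some members. The difference between the contrast of vcs sov with sov and that of vcs with WT was positive for 27 members and negative for 4 (limma, adjusted p under 0.05; background 27.1% and 14.5%), 14 and 6 with TMM scaling and 11 and 6 in RPM of nuclear genes. It was 0.84 on the log2 scale for ccmFN2 (SE 0.201, adjusted p = 0.00267), 0.93 for ATMG00970, 0.77 for rps4, 0.72 for ATMG01360 and 0.71 for cox3. For ATMG01210 it was -0.68 and for ATMG00280 -0.50. ATMG01360 shows the pattern: it averaged 1216 RPM in WT, had 1078, 1135, 1181 and 1165 RPM in sov, 1263, 1379, 1220 and 1406 RPM in vcs, and 2134, 2140, 1935 and 1934 RPM in vcs sov. Its 4 vcs sov libraries lay above all other 12 at 0 min.

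**Figure D4:**
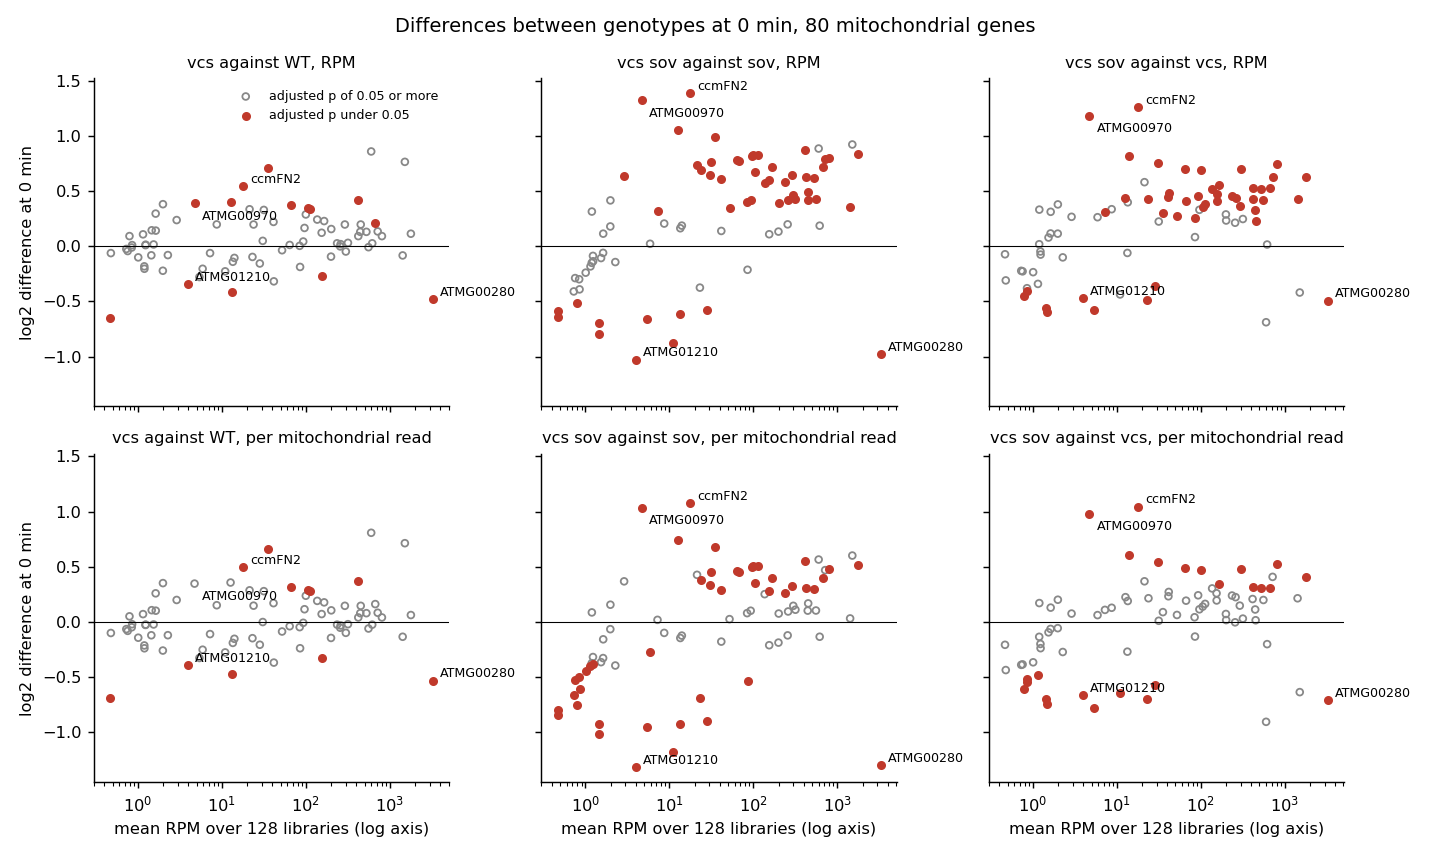
Log2 difference between genotypes at 0 min for the 80 members against their mean RPM over all libraries (log axis), in RPM (top) and per mitochondrial read (bottom); red points have an adjusted p under 0.05. In vcs sov against sov, ccmFN2 stands at 1.39 in RPM and ATMG00280 and ATMG01210 near -1.

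The members hold nearly all mitochondrial reads, so scaling to those reads largely fixes in advance how higher and lower members balance, and the split below is no result. In sov against WT 0 members were called (background 0.0102% higher and 0.0256% lower; 4 members at an unadjusted p under 0.05), in vcs against WT 6 were higher and 5 lower (60.7% and 5.16%), in vcs sov against sov 24 and 21 (50.6% and 20%), and in vcs sov against vcs 13 and 12 (24.3% and 27%). The difference between the vcs contrasts was positive for 5 members and negative for 7 (13.6% and 24.2%). This scale leans on ATMG00280, which made up 24.1% to 27.4% of mitochondrial reads in WT and 9.46% to 12.9% in vcs sov at 0 min. With ATMG00280, ATMG00020 and ATMG01390 left out of the scaling total, vcs sov against sov had 9 higher and 32 lower, vcs sov against vcs 5 and 22, and the difference between the vcs contrasts 0 and 15. ccmFN2 remained higher in vcs sov than in sov on the main scale, at 1.07.

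The count of members whose 480 min change differed between genotypes depended on the fit. Between sov and WT it differed for 0 members (0% of all genes; 0 at an unadjusted p under 0.05, and 0 by edgeR), and between vcs and WT for 0 members (background 16.7% positive and 10.9% negative; 2 at an unadjusted p under 0.05, 0 by edgeR). Between vcs sov and sov 2 members had a positive and 1 a negative difference (53.6% and 3.91%), and between vcs sov and vcs 1 and 0 (41.5% and 1.48%). With TMM scaling the counts were 0 and 48, and 1 and 29. RPM of nuclear genes gave 3 and 14, and 1 and 1. Same-numbered libraries paired within vcs and within vcs sov, and with a replicate block vcs sov against vcs had 4 positive and 2 negative in RPM and 3 and 6 per mitochondrial read. The block gave 8 positive and 6 negative in RPM for vcs sov against sov, and 3 positive for vcs against WT. Per mitochondrial read the RPM counts of 0 for sov and vcs against WT were the same (background 0% and 0%, then 14.2% and 8.6%), while vcs sov against sov had 4 and 2 (41.1% and 5.16%) and vcs sov against vcs 1 and 0 (25.6% and 1.86%).

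ATMG01210 was named by both of these comparisons. At 480 min it read 2.31, 2.60, 2.55 and 2.54 RPM in sov, 1.72, 1.37, 1.91 and 1.23 RPM in vcs, and 2.82, 2.29, 2.46 and 1.95 RPM in vcs sov. Its mean was left at 31.1% of the 0 min level in WT, 32.1% in sov, 66.0% in vcs sov and 30.4% in vcs. The difference in log2 change was 0.96 against sov (SE 0.197, limma adjusted p = 1.60e-05) and 0.96 against vcs (limma adjusted p = 3.51e-05). The first was 0.36 with TMM scaling, where it did not pass (edgeR adjusted p = 0.134). The vcs sov libraries began lower and ended near the other genotypes. ATMG00380 had a difference of 0.78 against sov that was lost without replicate 3 and with TMM scaling, and ATMG01040 one of -0.78 that was lost without replicate 2 or 4.

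Copies elsewhere in the genome limit these values. The 89 rows from AT2G07667 to AT2G07835 on chromosome 2, of which 54 reached 1 RPM at 0 min, took 1.4% of the reads in WT at 0 min, about as much as the mitochondrial rows together. For 33 members the table held a nuclear copy, each at least 99.72% identical to the mitochondrial genome over its aligned part. In WT at 0 min 21 copies stood above their member in RPM. These are amounts of reads, not corrected for the unlike lengths of copy and member. AT2G07732 had 9220 RPM beside 3698 for ATMG00280, AT2G07698 1543 beside 1113 for atp1, AT2G07671 696 beside 493 for atp9, and AT2G07727 506.5 beside 357 for cob. Member and copy had the same sign of the WT change at 480 min in 31 of 33 pairs, and the median absolute difference between the 2 was 0.07 on the log2 scale. For ATMG01090 and AT2G07777 it was -1.39 and -1.43. The pair furthest apart was ATMG01040 at 0.29 and AT2G07599 at -0.95. The longest mitochondrial match of AT2G07599 lies at bases 80133 to 82549. That of AT2G07664, noted as a pseudogene of ATMG01040, lies at 278483 to 278805. ATMG01040 and AT2G07599 may thus not be the same stretch. Which genome the reads of a pair came from cannot be told apart in these tables.

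ATMG00280 also tracked rbcL (ATCG00490), the plastid gene for the large subunit of Rubisco. It stood at 2.51% to 3.67% of rbcL RPM over all libraries, while ATMG01360, the member next in level, ranged from 1.02% to 5.11% of rbcL. The lower ATMG00280 of vcs and vcs sov came with a lower plastid share of reads, and the part of plastid reads in it was not tested. ATMG00370, whose nuclear copy matches plastid ycf1, was lower in vcs than in WT in RPM. Mean ycf1 at 0 min was 874 RPM in vcs and 1141 RPM in WT, and its part was not tested either.

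**Figure D5:**
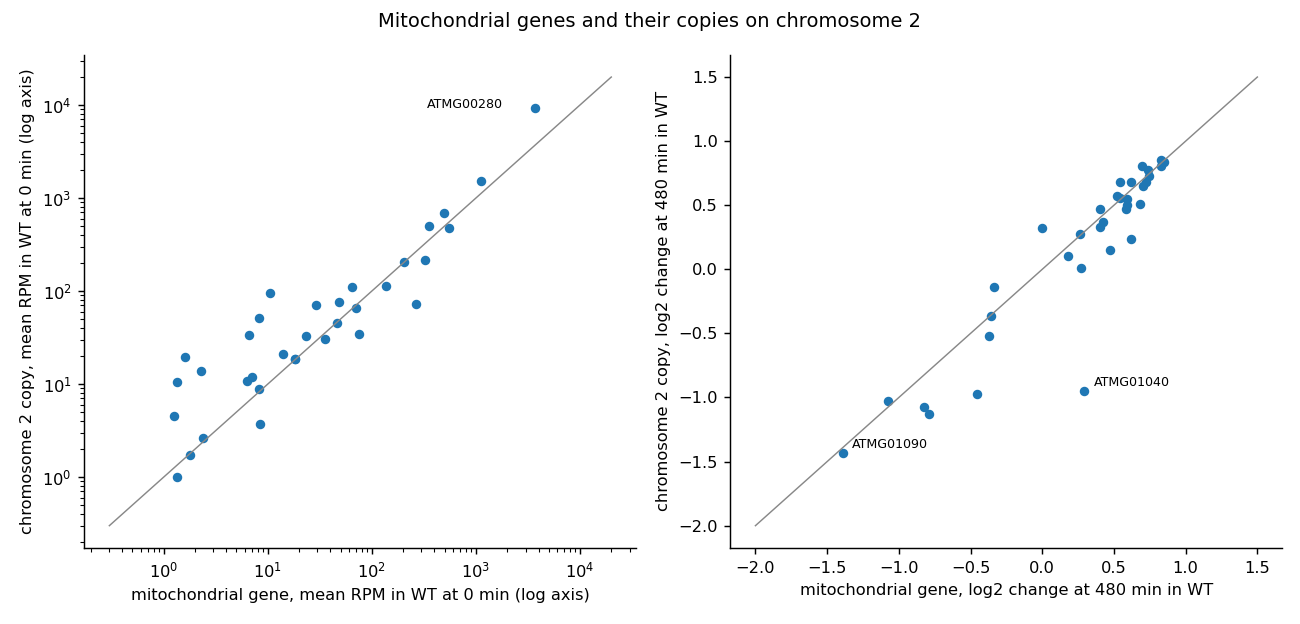
Mean RPM in WT at 0 min (left, log axes) and log2 change at 480 min in WT (right) of mitochondrial genes (x axis) and their chromosome 2 copies (y axis), 1 point per pair, with lines of equality. The right panel lies close to the line. Its widest gap is ATMG01040 at 0.29 and -0.95, a pair that may not be the same stretch. On the left AT2G07732 reads 9220 RPM beside 3698 for ATMG00280, not corrected for length.

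Nuclear genes for mitochondrial proteins were set beside the members. In a list of 30 nuclear genes of the respiratory chain and ATP synthase, 21 rose and 3 fell at 480 min in WT (background 6.31% and 75.5%). The list's median log2 change was 0.42 against -0.94 for all genes. In sov the counts were 19 and 3 (6% and 77.1%), in vcs 22 and 1 (6.94% and 74.5%) and in vcs sov 26 and 0 (12.4% and 54.2%). AT5G47030, a delta subunit of ATP synthase, changed by 0.72 in WT and ATP5 (AT5G13450) by 0.62, while GAMMA CA1 (AT1G19580) of complex I changed by -0.67. At 0 min 22 of the 30 were higher in vcs sov than in sov and 0 lower (66.3% and 12.8%). The list's median difference was 0.40 against 0.63 for all genes.

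A second list, of 21 nuclear genes for mitochondrial RNA synthesis, processing and decay, had 20 genes that could be tested. Of these 0 rose and 17 fell at 480 min in WT, 0 and 18 in sov, 1 and 13 in vcs sov, and 0 and 17 in vcs. Most genes fell at that time, 75.5% of all in WT, 77.1% in sov, 54.2% in vcs sov and 74.5% in vcs, and the list's median in WT was -1.12 against -0.94. At 0 min the 20 genes split into 15 up and 0 down for vcs against WT. Their median was 0.51, beside 0.49 for all genes. For vcs sov against sov the split was 4 up and 5 down, with a median of 0.01 beside 0.63. For vcs sov against vcs it was 0 up and 10 down, where 18% of all genes were lower. The median there was -0.28 against 0.18. MGP3 (AT1G68990), an RNA polymerase of the phage type, had a mean of 13.9 RPM in vcs sov, against 32.8 RPM in vcs (log2 difference -1.2, SE 0.102, limma adjusted p = 1.78e-08). AT5G15700, the polymerase of both mitochondria and chloroplasts, went from 11.1 to 3.93 RPM (-1.39), and AT5G14580, a polyribonucleotide nucleotidyltransferase, from 11.2 to 4.74 RPM (-1.16). In the same contrast 37 of the 80 mitochondrial members were higher in RPM, beside 40.8% of all genes. The count was 19 with TMM scaling and 18 in RPM of nuclear genes. A link between these nuclear genes and the members was not tested.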

How the data were processed

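Ribosomal RNA was removed from total RNA by Plant RiboZero, and the 32 groups of 4 samples were sequenced as stranded TruSeq libraries, per the labels' protocols. The submitters' processing notes name TopHat2 2.0.12 with Bowtie2 2.2.3, HTSeq 0.6.1, SAMtools, FastQC, R 3.1.0 and the build TAIR10. The annotation, the strand setting and the treatment of reads with several matches are not given in the sources used here. The labels state that swapped tubes of 2 libraries (replicate 3 at 60 min of vcs and vcs sov) were put right.

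The authors deposited RPM per gene and library. 100.0% of the values were within 0.001 of a whole read, so reads were recovered for depth and for edgeR. The authors deposited RPKM at 0 min and a ratio of scaled means to 0 min, 1 value per genotype, in a second table; these were used as given. A table of library sizes was not used.

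limma 3.58.1 (trend, robust, R 4.3.3) was fitted to log2(RPM + 0.5) of all genes that averaged 1 RPM or more in some group, with 4 genotype means at 0 min (16 libraries) or 32 group means (every library). P-values are two-sided and Benjamini-Hochberg adjusted over all genes, with a threshold of 0.05. A second fit scaled each library to its mitochondrial reads. Shares were compared by exact permutation over libraries. The code was tested on simulated data. Copies were aligned with BLAST 2.17.0. RefSeq coordinates are from TAIR10.1, and no coordinates of the authors' files were used.

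Alternatives were a pseudocount of 0.1 or 2, no filter, edgeR 4.0.16 with TMM, RPM of nuclear genes, a replicate block, another mitochondrial total, and leaving out libraries. Named members were, per comparison, up to 6 in each direction with the largest change past the threshold that moved alike in all 4 same-numbered pairs, the 10 most abundant, and up to 4 of each class. A few others, such as members that missed the threshold or the 5 early fallers, were described after their values were seen. The members and lists were chosen with earlier results of these data known. Same-numbered libraries were taken as paired where the deviations of all 4 pairs correlated over 0.1. This held between 0 and 480 min within vcs (0.221 to 0.342) and within vcs sov (0.265 to 0.508), but not within WT or sov (lowest 0.093 and 0.059). Across genotypes at 0 min 17 of 24 pairs passed.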

Additional observations from a re-analysis of the deposited data

Results flagged for a closer look

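Among 112 groups of 4 libraries tested, 2 held a library far from the others, where chance gives about 1 in 20. cox3 (ATMG00730) in sov at 480 min had 1149 RPM in replicate 4, with 861 to 870 RPM in the other 3. ATMG00580 in vcs at 0 min had 577.5 RPM in replicate 1, with 486 to 496 RPM in the other 3.

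The vcs effect at 0 min differed with the SOV state, by a test of that difference, for these named members. In RPM the difference on the log2 scale was 0.65 for ATMG00040 (lost with TMM scaling, edgeR adjusted p = 0.188, and without several single libraries), -0.50 for ATMG00280, 0.77 for rps4 (ATMG00290), 0.71 for cox3, 0.84 for ccmFN2 (ATMG00960), 0.93 for ATMG00970, -0.68 for ATMG01210 and 0.72 for ATMG01360. Per mitochondrial read it was -0.90 for ATMG00140, -0.77 for ATMG00280, 0.50 for rps4, -0.80 for ATMG00330, -0.69 for ATMG00670, 0.44 for cox3, 0.58 for ccmFN2, 0.69 for ATMG00970, -0.92 for ATMG01210 and 0.45 for ATMG01360. Of the latter, rps4, cox3, ccmFN2, ATMG00970 and ATMG01360 missed the threshold (limma adjusted p from 0.0559 to 0.141) when ATMG00280, ATMG00020 and ATMG01390 were left out of the scaling total. The cox3 call was also lost without any 1 of 6 libraries (limma adjusted p from 0.0588 to 0.0699), the ccmFN2 call without any 1 of 7 (0.0522 to 0.0888) and without the filter (0.0547), and the ATMG00970 call without sov replicate 2 (0.0523).

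The change at 480 min differed between vcs sov and sov in RPM for ATMG00380 (0.78), ATMG01040 (-0.78) and ATMG01210 (0.96), and between vcs sov and vcs for ATMG01210 (0.96). Per mitochondrial read the difference between vcs sov and sov was 0.82 for ATMG00360, 0.96 for ATMG00380, -0.36 for ATMG00513, -0.90 for ATMG01040, 0.91 for ATMG01210 and 0.65 for ATMG01340, and between vcs sov and vcs 0.86 for ATMG01210. Per mitochondrial read the call for ATMG00513 was lost without any 1 of the 4 replicates (limma adjusted p from 0.072 to 0.141) and at -0.15 with the other total (0.328). That for ATMG00360 was lost without replicate 1 or 2 (0.0611 and 0.143), for ATMG00380 without replicate 3 (0.0513) and for ATMG01040 without replicate 2 or 4 (0.071 and 0.0586). ATMG00360, ATMG00380 and ATMG01340 rest on 2 to 14 reads over the 4 libraries of a genotype at 480 min.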

How the results depend on the processing

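The sign of the genotype differences at 0 min depended on the total by which libraries were scaled. With TMM and with RPM of nuclear genes, in that order, vcs against WT had 0 and 1 members higher and 51 and 33 lower, vcs sov against sov 5 and 12 higher and 43 and 28 lower, and vcs sov against vcs 19 and 18 higher. The difference between the vcs contrasts was positive for 14 and 11, and negative for 7 with a replicate block. At 480 min these scalings gave 7 and 14 lower in WT, and TMM 61 higher and 8 lower in sov, 9 lower in vcs sov and 8 lower in vcs. At 120 min TMM gave 52 higher in WT, 55 and 8 in sov, 33 in vcs sov and 51 in vcs. The 480 min change of vcs sov against sov had 0 positive and 48 negative with TMM and 14 negative in nuclear RPM, and against vcs 29 and 1 negative. That of vcs against WT had 1 positive in nuclear RPM and 1 with a pseudocount of 2. Vcs against WT turned to -0.18 (ccmFC), -0.12 (ccmC), -0.16 (rps12) and -0.11 (nad2) with TMM, and to -0.0196 (ccmFC) in nuclear RPM. Without plastid reads the share differences were -0.534, -0.327 and -0.00351 percentage points.

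Same-numbered libraries paired over time within vcs and vcs sov, and did not by the rule used within WT or sov or between any 2 genotypes at 0 min. Across genotypes at 0 min 17 of 24 pairs still correlated over 0.1, up to 0.41. Whether same-numbered libraries shared a batch was not tested. With the replicate block, 120 min RPM counts were 38 higher in WT, 16 lower in vcs and 28 higher in vcs sov, and the 480 min change of vcs against WT had 3 positive, of vcs sov against sov 8 and 6, and against vcs 4 and 2. Per mitochondrial read the block gave 4, 14, 8 and 2 higher at 480 min in the order WT, sov, vcs, vcs sov, 30 lower at 120 min in vcs sov, and 2 positive (vcs against WT), 9 and 12 (vcs sov against sov) and 3 and 6 (against vcs) for the 480 min change. For the shares, the sign-flip permutation over 4 pairs gave an exact p of 0.125, the smallest it allows, with increases of 0.936, 0.793, 0.867 and 1.29.

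Per mitochondrial read, scaling without ATMG00280, ATMG00020 and ATMG01390 gave 9 and 32 in vcs sov against sov, 5 and 22 against vcs, 0 and 15 for the difference between the vcs contrasts, 1 higher at 120 min in sov and in vcs, 2, 4, 2 and 4 higher at 480 min, and 1 (vcs against WT), 8 and 1 (vcs sov against sov) and 2 (against vcs) for the 480 min change. A pseudocount of 2 gave 1 and 2 positive for the 480 min change of vcs against WT and of vcs sov against vcs. Without the filter, 1 member was higher at 480 min in WT and 0 in vcs sov. The cause of these shifts was not tested.

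Leaving out 1 library at 0 min, or 1 replicate number over time, gave these ranges of higher and lower members in RPM: 7 to 12 and 2 to 5 for vcs against WT, 39 to 42 and 9 to 13 for vcs sov against sov, 32 to 38 and 4 to 10 against vcs, and 19 to 28 and 3 to 7 for the difference between the vcs contrasts. At 480 min, over the genotypes, they were 33 to 42 and 14 to 20, at 120 min 13 to 27 and 7 to 14, and for the 480 min changes 0 to 3 and 0 to 1. The difference between the vcs contrasts had 7 negative without vcs sov replicate 1. Per mitochondrial read they were 5 to 11 and 3 to 6, 20 to 25 and 15 to 23, 8 to 18 and 10 to 13, and 3 to 6 and 6 to 10 in the same order, with 11 higher in vcs against WT and 8 in vcs sov against vcs without vcs replicate 4. At 480 min 0 to 8 were higher and 28 to 45 lower, with 3 higher in sov without replicate 2, and at 120 min 0 and 11 to 22. The 480 min change gave 0 to 3 in either direction, with 0 negative in vcs sov against sov without replicate 2 or 4. The share rose by 0.8496 to 1.019 percentage points in WT, 0.7226 to 0.8481 in sov, 1.142 to 1.394 in vcs sov and 0.7992 to 0.9109 in vcs, where 3 against 3 cannot go below an exact p of 0.1. At 0 min its differences were -0.0726 to -0.00127 (sov), 0.0283 to 0.116 (vcs), 0.305 to 0.374 (vcs sov against sov) and 0.160 to 0.274 (against vcs).

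Low members rest on few reads, and their change is limited by counting error.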
